A study of Mus musculus with 19 samples.

Results

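The major histocompatibility complex (MHC) is the gene region whose products display peptides to T cells, and the genes described here are its mouse members, the H2 genes, together with the genes that build and load their products. Every row of the deposited count table whose name begins with H2-, and the rows of Cd74, Ciita, B2m, Tap1, Tap2 and Tapbp, were taken where they held at least 20 reads summed over the 19 lung libraries. There were 51 rows with such a name, of which 11 fell short (8 had no read at all, and H2-M10.1, H2-M10.6 and H2-M9 had a few), which left 40 of 49585 genes. They comprised 2 classical class I chains, 21 non-classical class I genes and pseudogenes, 5 classical class II chains, 5 non-classical class II chains, the class I partner B2m, 3 genes of class I loading, the class II partner Cd74, the class II regulator Ciita and H2-Ke6, which lies in the region and encodes a steroid dehydrogenase.

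Whole lung was taken from female Balb/c mice that were 6 to 8 weeks old at the start, either wild type (WT) or heterozygous for deletion of Has2, the gene for hyaluronan synthase 2. Both genotypes were on the same background, to which the Has2+/- line had been backcrossed for at least 8 generations, and heterozygotes were used because embryos that lack both copies die. Ovalbumin (OVA) groups were sensitized by intraperitoneal OVA with aluminum hydroxide and then challenged intranasally for 8 weeks, saline groups received saline by both routes, and the study describes its lung samples as taken 24 h after the last challenge. The numbering 1 to 19 follows the running number of the count table, with WT-saline as libraries 1 to 5, Has2+/- saline as 6 to 9, WT-OVA as 10 to 14 and Has2+/- OVA as 15 to 19.

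Total counts ran from 4446534 to 7048676 reads per library, with a median of 5493263. Has2 itself had 1 to 10 reads per library, with 1 to 4 in WT-saline, 2 to 7 in Has2+/- saline, 2 to 10 in WT-OVA and 3 to 9 in Has2+/- OVA, so the genotype labels could not be checked from its level. Nothing in the labels says that a library is a repeat of another, and no pair of libraries held identical values. Each library was taken as 1 mouse, although the labels do not say so, and the p-values measure the spread between these libraries. Whole lung holds many cell types, so fewer cells of a type and less RNA per cell cannot be told apart. Alveolar type 2 markers, which define a large epithelial class of this tissue, summed to between 8439 and 13194 counts scaled to 1000000 reads of TMM-adjusted library size (CPM) in every library, and none of them was at 0 in any group.

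Class I molecules are formed by a heavy chain and beta-2 microglobulin (B2m) and carry peptides that the TAP transporter brings into the endoplasmic reticulum, where tapasin (Tapbp) helps to load them for CD8 T cells. Class II molecules are pairs of an alpha and a beta chain that travel with the invariant chain (Cd74) to endosomes, where H2-DM exchanges the invariant chain fragment for antigen peptides and H2-O restrains H2-DM, and they are seen by CD4 T cells. Class II expression is largely set by the transactivator Ciita and is a property of B cells, dendritic cells and macrophages, and of alveolar type 2 cells in the lung, whereas nearly all cells carry class I. Interferon gamma raises both classes.

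All H2 genes measured here, with Tap1, Tap2 and Tapbp, lie on chromosome 17, in the mm10 genome that the authors used. The class II block ran from H2-Oa (start 34092339) to H2-Ea-ps (end 34344643), the Q genes lay near H2-D1 (start 35262729, end 35267499) and the T and M genes followed, with H2-M2 (start 37480850, end 37483552) at the end. B2m lies on chromosome 2 and Ciita on chromosome 16. Balb/c mice carry the d form of the region and the reference genome carries the b form of C57BL/6, so part of the reads came from alleles that differ from the reference. In Balb/c there is also a classical class I gene, L, that the reference lacks, and H2-Ea-ps, listed as a pseudogene because its promoter is deleted in the b form, is a working alpha chain.

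Promoters of class II genes are recognised through a shared module in which an X box, bound by RFX factors, precedes a Y box, bound by NF-Y, and Ciita joins the proteins assembled there. The letters TGATTGG, which include the core that NF-Y binds, were searched on both strands in the 250 bases before each RefSeq start site (GRCm38.p6), and the letters GCAAC, part of the X box, were searched on the gene's own strand at 25 to 50 bases before TGATTGG, where the 2 cannot overlap. The sequence table matched 27 of the 40 members. Some class II members whose fold changes are described below, and H2-M2 beside them, are shown because the results turn on them. They are given as 60-base windows written 5′ to 3′ on the gene's strand, with GCAAC and TGATTGG in capitals. They lie at chr17:34287859-34287918 (H2-Aa, minus strand), chr17:34305761-34305820 (H2-Eb1, plus), chr17:34325528-34325587 (H2-Eb2, plus), chr17:34145112-34145171 (H2-DMb2, plus), chr17:34238801-34238860 (H2-Ob, plus) and chr17:37483595-37483654 (H2-M2, minus).
H2-Aa: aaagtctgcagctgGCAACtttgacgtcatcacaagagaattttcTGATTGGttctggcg
H2-Eb1: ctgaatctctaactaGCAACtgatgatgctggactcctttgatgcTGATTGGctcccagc
H2-Eb2: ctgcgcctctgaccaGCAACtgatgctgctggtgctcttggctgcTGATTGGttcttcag
H2-DMb2: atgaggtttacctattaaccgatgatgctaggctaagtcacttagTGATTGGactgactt
H2-Ob: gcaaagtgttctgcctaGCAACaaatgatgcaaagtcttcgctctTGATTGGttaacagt
H2-M2: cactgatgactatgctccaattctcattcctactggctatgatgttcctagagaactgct
All 3 of the classical class II genes in the table (H2-Aa, H2-Eb1 and H2-Eb2) held TGATTGG on their own strand, as did 4 of 5 non-classical class II genes (H2-DMb1, H2-DMb2, H2-Oa and H2-Ob), where 3.64% of all 32851 windows did. H2-DMa, with 2 windows, was the class II gene without it. GCAAC stood before TGATTGG in H2-Aa, H2-Eb1, H2-Eb2, H2-Oa and H2-Ob, and in 0.113% of all windows, at a distance of 31 bases in H2-Aa, 30 in H2-Eb1 and H2-Eb2 and 28 in H2-Ob. Among class I genes the same letters lay on the opposite strand in 1 of 2 classical genes (H2-D1) and 5 of 13 non-classical genes (H2-Q4, H2-Q6, H2-Q7, H2-T23 and H2-T-ps), against 3.83% of all windows, and on the gene's strand in H2-T22. H2-M2, the member with the largest fold change, held them on neither strand, and 7.23% of all windows held them on either. Its printed window does hold the shorter letters CCAAT, which are ATTGG of TGATTGG read on the opposite strand. The shorter letters were not searched. The window of H2-DMb2 lies inside the gene as the files bound it, because RefSeq starts that gene later. A match of letters describes the sequence and does not show binding.

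Levels between genes are compared as CPM per kilobase of exon (from GENCODE M21), averaged over the 19 libraries. Cd74 was the most abundant member at 871 CPM per kilobase, followed by B2m at 378 and H2-D1 at 356. The class II chains H2-Ea-ps, H2-Ab1, H2-Eb1 and H2-Aa lay between 97.7 and 157, with H2-K1 among them at 132. Non-classical members were lower, and the highest of them was H2-Q4 at 46.1. H2-Ob stood at 3.71, H2-Oa at 1.54 and H2-Eb2 at 0.906. H2-Ea-ps was read in all 19 libraries, at 79.2 to 215 CPM.

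To see which counts could be exchanged between near-identical genes, the share of each member's 36-base stretches, the read length, that also occurs in transcripts of another gene was computed from GENCODE M21. It was 63.5% for H2-T22, 60.4% for H2-T10, 52.1% for H2-Q5, 47.7% for H2-Q4 and 46.0% for H2-Q6, so single values of these genes are uncertain. H2-Ke6 shared 74.4% with a transcript model that overlaps it. The classical class I genes shared 21.8% (H2-D1) and 17.6% (H2-K1). For H2-DMb1 and H2-DMb2 the shares with each other were 28.7% and 27.1%, whereas H2-M2 (2.61%), H2-Eb2 (0.807%), H2-Ob (0.0%), H2-Ab1 (0.076%), Cd74 (0.877%) and H2-Ea-ps (0.0%) had few or no shared stretches. Pairs of reads and the d alleles of Balb/c can change these shares, which was not tested.

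The first comparison asks which of these genes OVA challenge changed in WT lungs. After 8 weeks of OVA, 12 of the 37 tested members were higher in WT-OVA than in WT-saline and 0 were lower, where 12% of all 14495 tested genes were called higher and 9.95% lower. A gene was called where edgeR's Benjamini-Hochberg adjusted p, over all genes tested, was under 0.01 and the fold change exceeded 1.2. By class, 7 of 10 class II chains, Cd74 and Ciita were called, against 3 of 20 class I chains and none of B2m, Tap1, Tap2 and Tapbp. With 1 library left out, H2-Aa and H2-Ea-ps were each called in 8 of 19 fits, H2-Ab1 in 10 and H2-DMa in 11. Of the class I chains, H2-Bl was called in 13 and H2-D1 in 3. H2-M2, H2-Eb2, H2-Ob, H2-DMb2, Cd74 and Ciita were called in all 19. Some of the 19 fits left out a Has2+/- library and so kept every library of this comparison. Of the fits that left out a WT library, only that without library 2 called H2-Aa, H2-Ea-ps, H2-Ab1 or H2-D1. The median log2 fold change was 0.75 over the class II chains and 0.41 over the class I chains, beside -0.0012 over all genes, and 36 of 37 members had a positive value where 7228 of 14495 genes did. No member had a negative value at an unadjusted p under 0.05 in any of the OVA comparisons, and DESeq2 called none lower.

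The member that changed most was H2-M2, a class I-like gene of the M region whose function is not established. In saline lungs H2-M2 stood at 0.367, 2.12, 0.198, 0.415 and 1.10 CPM (WT) and at 0.436, 0.374, 0.836 and 2.17 CPM (Has2+/-). Under OVA, H2-M2 stood at 27.4, 23.8, 12.7, 33.8 and 13.3 CPM in WT and at 7.54, 18.7, 18.6, 14.3 and 28.04 in Has2+/- lungs. Every OVA library lay above every saline library, and the saline values rest on 1 to 12 reads. For H2-M2 edgeR gave a log2 fold change of 4.64 ± 0.48 (SE) and an adjusted p of 4.12e-07.

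H2-Eb2, a second beta chain gene of the E type, was close to silent in saline lungs. For H2-Eb2, the WT-saline libraries held 0.183, 1.41, 0.989, 0.831 and 0.63 CPM, and the Has2+/- saline libraries 0.291, 0.187, 0.334 and 1.30. With OVA, H2-Eb2 had 7.87, 5.72, 4.92, 4.18 and 3.46 CPM in WT mice and 5.61, 7.03, 4.38, 5.805 and 3.27 in Has2+/- mice. The saline values correspond to 1 to 8 reads and the OVA values to 17 to 38, and the groups did not overlap. H2-Eb2 had a log2 fold change of 2.66 ± 0.38 (SE) and an edgeR adjusted p of 2.04e-05.

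H2-Ob, the beta chain of H2-O and a gene known mainly from B cells, also separated the treatments. H2-Ob gave 11.2, 9.70, 5.34, 11.01 and 7.25 CPM in WT-saline libraries 1 to 5, and 5.67, 7.11, 17.05 and 15.2 in Has2+/- saline libraries 6 to 9. OVA values of H2-Ob were 24.4, 37.4, 27.7, 21.3 and 21.5 CPM in WT and 30.6, 34.2, 28.7, 34.4 and 29.8 in Has2+/- mice. Among saline lungs, libraries 8 and 9 were the highest, still below the lowest OVA value. edgeR put H2-Ob at a log2 fold change of 1.57 ± 0.25 (SE), with an adjusted p of 5.79e-05.

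A beta chain of the peptide editor H2-DM, H2-DMb2, behaved alike. In saline lungs H2-DMb2 stood at 30.99, 35.97, 25.5, 27.00 and 24.9 CPM (WT) and at 20.9, 18.9, 40.8 and 38.04 CPM (Has2+/-). Under OVA, H2-DMb2 stood at 57.4, 66.6, 52.9, 53.5 and 59.04 CPM in WT and at 61.6, 69.4, 58.5, 58.7 and 49.9 in Has2+/- lungs. No saline library reached the OVA range. For H2-DMb2 edgeR gave a log2 fold change of 1.00 ± 0.17 (SE) and an adjusted p of 0.000103. Its neighbour H2-DMb1, which shares sequence with it, was not called in WT lungs, with 18.3 to 39.1 CPM in WT-saline and 28.8 to 34.3 in WT-OVA. H2-Oa, the partner chain of H2-Ob, had 0.831 to 2.38 CPM in WT-saline and 2.19 to 4.04 in WT-OVA, a log2 fold change of 1.04 ± 0.37 (SE) with an adjusted p of 0.0332 by edgeR.

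**Figure D1:**
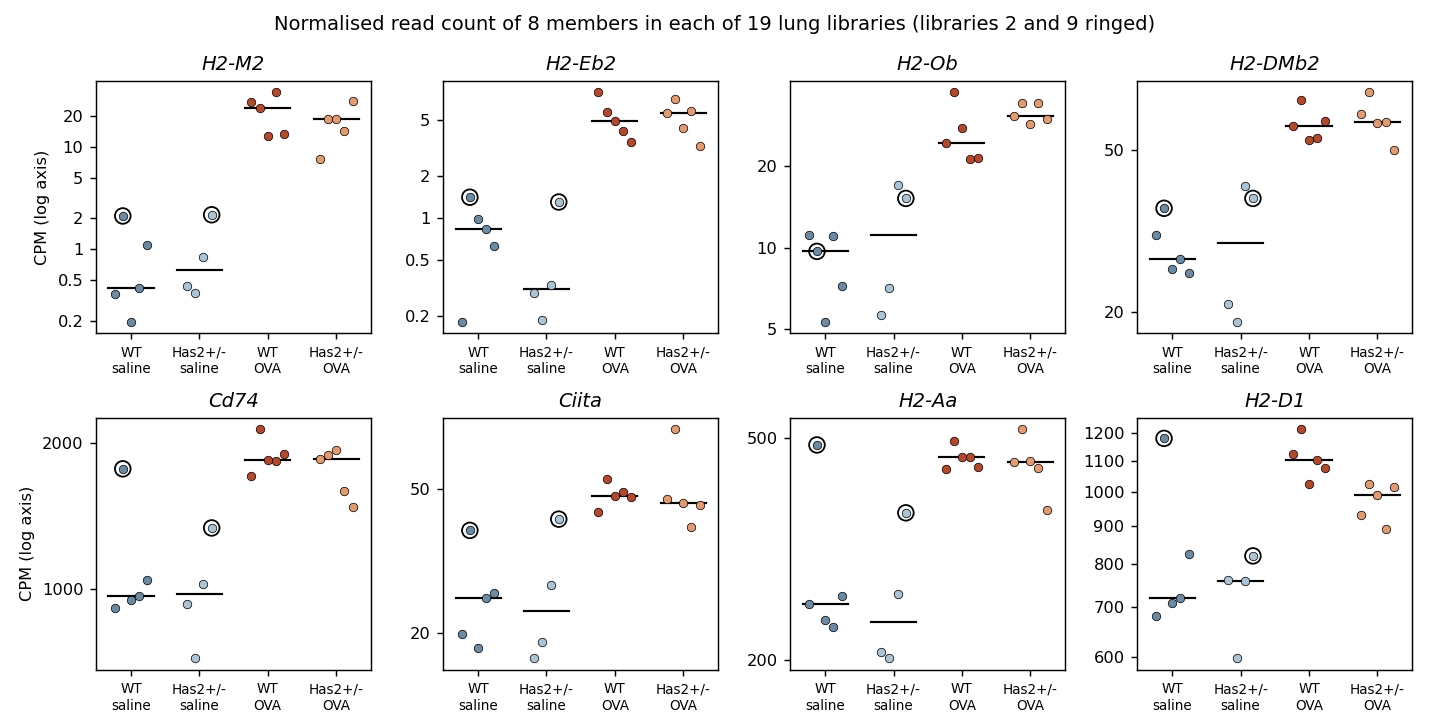
CPM of 8 members (log axis) in each library, by group, with a bar at the group median and rings on WT-saline library 2 and Has2+/- saline library 9. The top row shows H2-M2, H2-Eb2, H2-Ob and H2-DMb2, whose OVA libraries all lie above their saline libraries, and in the bottom row library 2 lies at 1766 CPM for Cd74, within the 1706 to 2131 CPM of WT-OVA.

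The invariant chain Cd74 and the transactivator Ciita rose with them. For Cd74, the WT-saline libraries held 913, 1766, 949.8, 969 and 1043 CPM, and the Has2+/- saline libraries 932, 720.0, 1023 and 1335. With OVA, Cd74 had 1706, 2131, 1841, 1835 and 1895 CPM in WT mice and 1849.8, 1888, 1934, 1587 and 1474 in Has2+/- mice. Here WT-saline library 2 lay inside the WT-OVA range, and the other 4 WT-saline libraries lay below it. Cd74 had a log2 fold change of 0.74 ± 0.17 (SE) and an edgeR adjusted p of 0.00169. Ciita gave 19.8, 38.4, 18.2, 24.9 and 25.8 CPM in WT-saline libraries 1 to 5, and 17.01, 18.9, 27.1 and 41.3 in Has2+/- saline libraries 6 to 9. OVA values of Ciita were 43.2, 53.5, 47.96, 49.1 and 47.6 CPM in WT and 46.8, 73.3, 45.7, 39.4 and 45.3 in Has2+/- mice. No WT-saline library reached the lowest WT-OVA value of Ciita, but library 9 exceeded the lowest Has2+/- OVA value. edgeR put Ciita at a log2 fold change of 0.92 ± 0.22 (SE), with an adjusted p of 0.00248.

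Of the chains of the A and E molecules, H2-Aa, H2-Ab1 and H2-Ea-ps were called in WT lungs. In saline lungs H2-Aa stood at 252, 487, 235, 229 and 261 CPM (WT) and at 206, 201, 262 and 367 CPM (Has2+/-). Under OVA, H2-Aa stood at 439.6, 495, 463, 463 and 445 CPM in WT and at 454, 519, 455, 442 and 371 in Has2+/- lungs. Library 2 again stood at the OVA level. For H2-Aa edgeR gave a log2 fold change of 0.66 ± 0.18 (SE) and an adjusted p of 0.00782. For H2-Ab1, the WT-saline libraries held 230.3, 497, 238, 236 and 279.8 CPM, and the Has2+/- saline libraries 229, 169.8, 280.4 and 367. With OVA, H2-Ab1 had 478, 546, 481, 454 and 475 CPM in WT mice and 475, 505, 479, 408 and 365 in Has2+/- mice. As for H2-Aa, 4 of 5 WT-saline libraries lay below all WT-OVA libraries. H2-Ab1 had a log2 fold change of 0.72 ± 0.19 (SE) and an edgeR adjusted p of 0.00698. H2-Ea-ps gave 107, 201, 99.6, 108 and 113 CPM in WT-saline libraries 1 to 5, and 93.03, 79.2, 110.0 and 177 in Has2+/- saline libraries 6 to 9. OVA values of H2-Ea-ps were 182, 206, 202, 208 and 195 CPM in WT and 215, 211, 191, 204 and 182 in Has2+/- mice. The pattern was the same, with library 2 at the OVA level. edgeR put H2-Ea-ps at a log2 fold change of 0.66 ± 0.18 (SE), with an adjusted p of 0.00785.

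H2-Eb1, the beta chain of the E molecule, missed the threshold in WT lungs. In saline lungs H2-Eb1 stood at 153, 345, 149, 160.4 and 184 CPM (WT) and at 129, 109, 176 and 301 CPM (Has2+/-). Under OVA, H2-Eb1 stood at 328, 367, 345, 339 and 322 CPM in WT and at 352, 372, 358, 305 and 267 in Has2+/- lungs. In these values, too, library 2 overlapped the WT-OVA libraries. For H2-Eb1 edgeR gave a log2 fold change of 0.78 ± 0.23 (SE) and an adjusted p of 0.0129. For H2-DMa, the WT-saline libraries held 26.2, 42.8, 26.9, 22.6 and 28.5 CPM, and the Has2+/- saline libraries 25.9, 19.1, 30.1 and 41.3. With OVA, H2-DMa had 48.04, 44.6, 44.3, 40.1 and 45.9 CPM in WT mice and 36.2, 46.6, 44.99, 38.4 and 43.02 in Has2+/- mice. This alpha chain of H2-DM was called in WT lungs. H2-DMa had a log2 fold change of 0.59 ± 0.16 (SE) and an edgeR adjusted p of 0.00753.

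Among class I chains, H2-D1 and H2-Bl were called in WT lungs beside H2-M2. H2-D1 gave 682, 1179, 710.0, 721 and 825 CPM in WT-saline libraries 1 to 5, and 762, 598, 759 and 821 in Has2+/- saline libraries 6 to 9. OVA values of H2-D1 were 1122, 1213, 1025, 1103 and 1076 CPM in WT and 932, 1026, 989, 893 and 1014 in Has2+/- mice. H2-D1, a classical heavy chain, was called, although library 2 exceeded 4 of the 5 WT-OVA libraries. edgeR put H2-D1 at a log2 fold change of 0.43 ± 0.12 (SE), with an adjusted p of 0.00924. It was called in 3 of 19 fits with 1 library left out, and not when total count alone set the scale or only the groups compared were fitted. The other classical heavy chain, H2-K1, was not called. In saline lungs H2-K1 stood at 308, 531, 303, 334 and 377 CPM (WT) and at 296, 243, 317 and 349.5 CPM (Has2+/-). Under OVA, H2-K1 stood at 473, 505, 436, 454 and 459.8 CPM in WT and at 372, 449, 404, 376 and 385 in Has2+/- lungs. Library 2 was the highest of all 19 libraries for H2-K1. For H2-K1 edgeR gave a log2 fold change of 0.33 ± 0.12 (SE) and an adjusted p of 0.0474. For H2-Bl, the WT-saline libraries held 8.43, 16.9, 12.3, 8.52 and 13.5 CPM, and the Has2+/- saline libraries 12.4, 6.93, 10.7 and 11.7. With OVA, H2-Bl had 19.1, 16.6, 17.4, 20.6 and 19.3 CPM in WT mice and 12.7, 16.3, 15.4, 14.7 and 15.6 in Has2+/- mice. The non-classical H2-Bl, named for its expression in blastocysts, was called. H2-Bl had a log2 fold change of 0.63 ± 0.17 (SE) and an edgeR adjusted p of 0.00614. Its stretches were shared with other genes at 16.8%.

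The remaining non-classical class I genes gave log2 fold changes between -0.13 (H2-T24) and 0.72 (H2-M5) in WT lungs, and none was called. H2-T23, which encodes Qa-1, a ligand of inhibitory NK cell receptors, had 0.36 ± 0.14 (SE). H2-M3, which presents formylated peptides, had 0.51 ± 0.19, and H2-Q7, which encodes Qa-2, had 0.40 ± 0.17. H2-T24 stood between 23.9 and 36.8 CPM in all 19 libraries. B2m had 0.42 ± 0.12, with an adjusted p of 0.0126 by edgeR, Tap1 0.27 ± 0.22, Tap2 0.19 ± 0.15 and Tapbp 0.10 ± 0.09, while H2-Ke6 had 0.32 ± 0.13. H2-M10.2, H2-M6-ps and H2-Q3 fell below the filter on low counts, with at most 4, 6 and 6 reads in a library, and a fit without that filter called none of them.

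**Figure D2:**
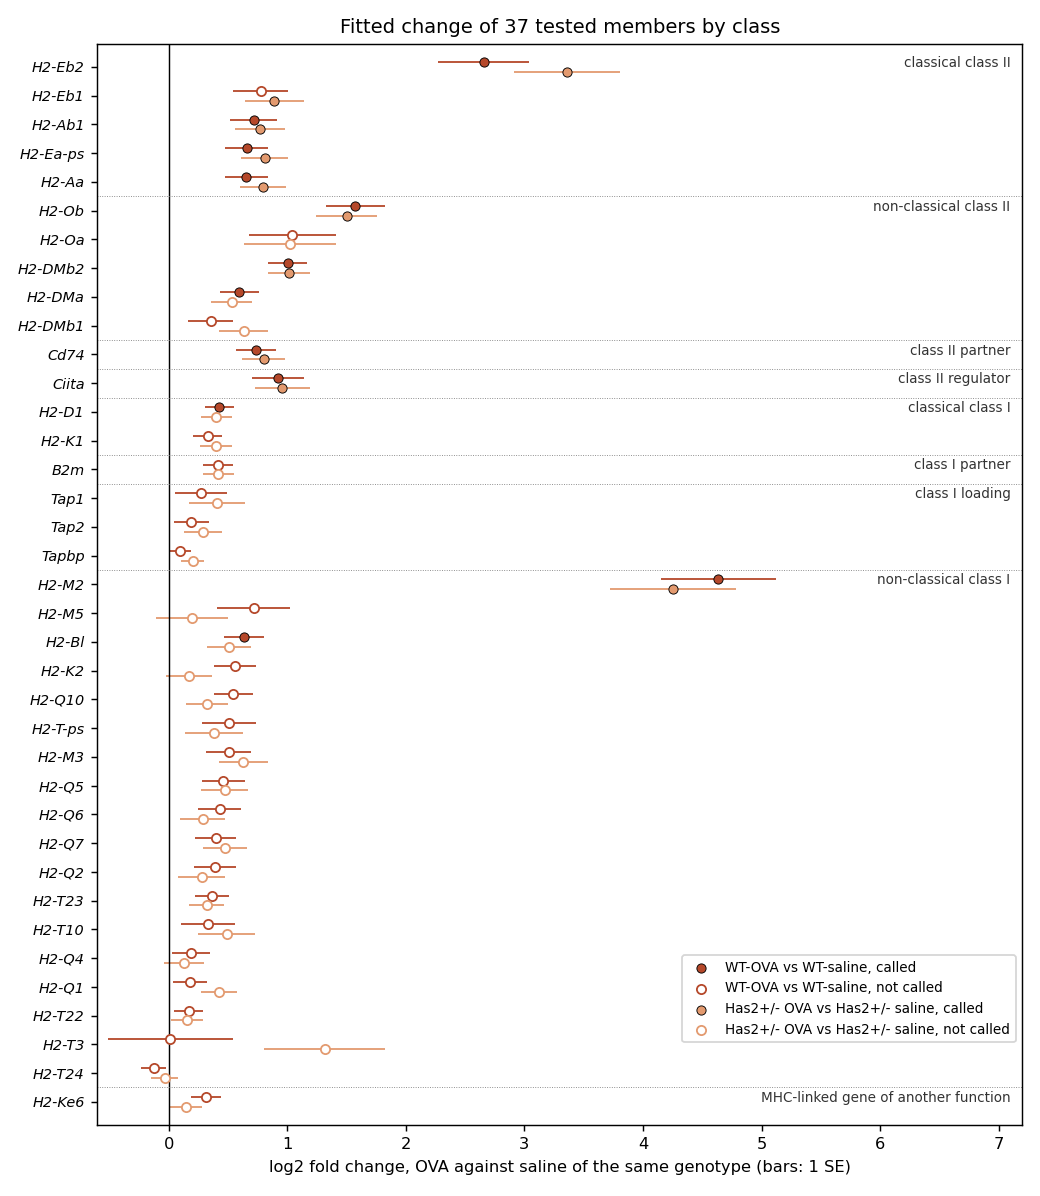
Fitted log2 fold change of OVA against saline (bars, 1 SE) for the 37 tested members, in WT lungs and in Has2+/- lungs, grouped by class, with filled points for called members. Most class II genes lie to the right of most class I genes, and H2-M2 stands at 4.64 in WT and 4.25 in Has2+/- lungs.

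Across members, 5 of 37 had every WT-OVA library above every WT-saline library (H2-M2, H2-Eb2, H2-Ob, H2-DMb2 and Ciita), where 14.1% of all genes did. In Has2+/- lungs the count was 11 of 37, beside 11% of all genes, and was made up of the first 4 of these with Cd74, H2-Aa, H2-Ea-ps, H2-D1, H2-K1, H2-Bl and B2m.

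The same question in Has2+/- lungs gave 10 members higher and 0 lower, where 10.5% of all genes were called higher and 7.72% lower. These were 7 of 10 class II chains (all 5 classical chains, H2-Ob and H2-DMb2), Cd74, Ciita and 1 of 20 class I chains, H2-M2. The median log2 fold change was 0.85 for class II chains and 0.39 for class I chains, beside -0.014 over all genes. edgeR put H2-M2 at a log2 fold change of 4.25 ± 0.53 (SE), with an adjusted p of 6.17e-06. For H2-Eb2 edgeR gave a log2 fold change of 3.36 ± 0.45 (SE) and an adjusted p of 1.31e-05. H2-Ob had a log2 fold change of 1.503 ± 0.26 (SE) and an edgeR adjusted p of 0.000188. These had the smallest p in WT lungs as well. edgeR put H2-DMb2 at a log2 fold change of 1.01 ± 0.18 (SE), with an adjusted p of 0.000243. For Cd74 edgeR gave a log2 fold change of 0.80 ± 0.18 (SE) and an adjusted p of 0.00199. Ciita had a log2 fold change of 0.96 ± 0.23 (SE) and an edgeR adjusted p of 0.00379. The A and E chains followed. edgeR put H2-Aa at a log2 fold change of 0.79 ± 0.19 (SE), with an adjusted p of 0.00412. For H2-Ab1 edgeR gave a log2 fold change of 0.77 ± 0.21 (SE) and an adjusted p of 0.00802. H2-Ea-ps had a log2 fold change of 0.81 ± 0.19 (SE) and an edgeR adjusted p of 0.00363. edgeR put H2-Eb1 at a log2 fold change of 0.89 ± 0.25 (SE), with an adjusted p of 0.00979. With 1 library left out, H2-Eb1 was called in 4 of 19 fits and H2-Ab1 in 9, and both were lost when total count alone set the scale or only the groups compared were fitted. Ciita, called in 16 of 19, was also lost with only the groups compared. Some of the 19 fits left out a WT library and so kept every library of this comparison.

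Not called in Has2+/- lungs were H2-D1 (0.40 ± 0.13 SE, adjusted p = 0.0229 by edgeR), H2-DMa (0.53 ± 0.17, adjusted p = 0.0253) and H2-Bl (0.51 ± 0.18, adjusted p = 0.0404), which were called in WT lungs. That a member passed in one genotype and not in the other does not show a difference, and the test of the difference itself called none of them, at -0.03 for H2-D1, -0.06 for H2-DMa and -0.12 for H2-Bl on the log2 scale. H2-DMb1 had 0.63 ± 0.20, H2-Oa 1.02 ± 0.39 and H2-K1 0.40 ± 0.13, and none was called.

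Set against the WT-saline libraries, which the first comparison also used, Has2+/- OVA lungs gave 7 members higher and 0 lower, where 10.9% of all genes were called higher and 9.56% lower. They were H2-M2 (log2 fold change 4.28), H2-Eb2 (2.67), H2-Ob (1.83), H2-DMb2 (1.05), Ciita (0.97), H2-Ea-ps (0.67) and Cd74 (0.63). Side by side with these, the values of WT-OVA against the same libraries were 4.64, 2.66, 1.57, 1.00, 0.92, 0.66 and 0.74. H2-Aa had 0.61 ± 0.18 (SE) and H2-Ab1 0.59 ± 0.19, neither of them called, and H2-K1 had 0.10 ± 0.12.

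**Figure D3:**
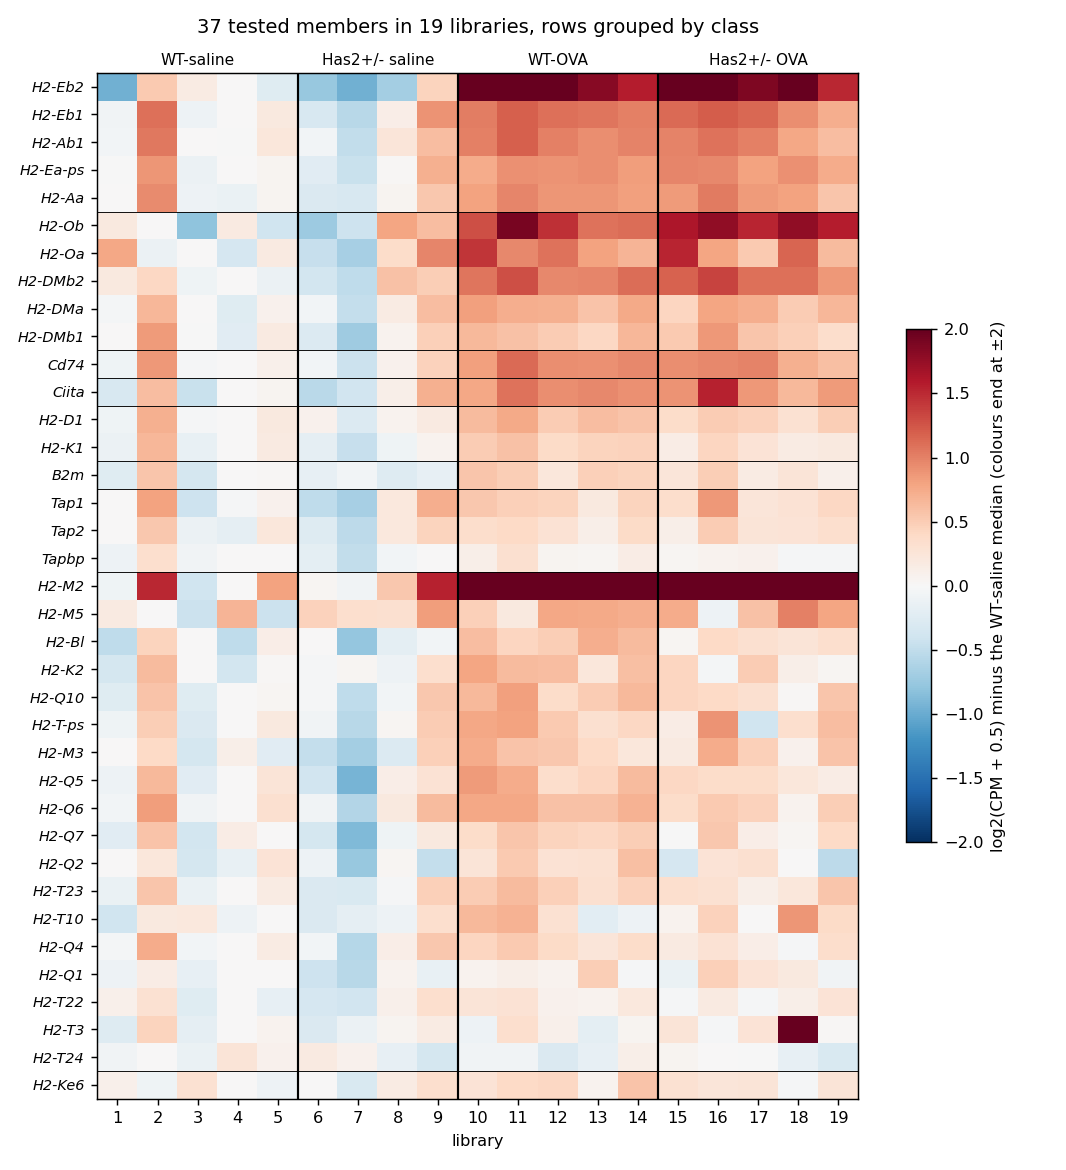
Log2(CPM + 0.5) of the 37 tested members in the 19 libraries, minus the WT-saline median, with rows grouped by class and colours ending at 2 in either direction. Library 2 is raised in most rows of its group, and H2-T3 stands out in library 18, at 15.1 CPM.

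WT-saline library 2 was the highest of its group for 30 of 37 tested members, where it was the highest for 22.8% of all tested genes, and it was at or above the lowest WT-OVA library for 28 of 37, where it was so for 73.5% of all tested genes. For H2-Ob, by contrast, it lay in the middle of its group. In the Has2+/- saline group, library 9 was the highest for 30 of 37 members (32.2% of all genes). Leaving out library 2 raised the count of WT calls from 12 to 19, with 8 of 20 class I chains (H2-K1, H2-K2, H2-Q6, H2-Q10 and H2-T23 joining the first 3), 8 of 10 class II chains and B2m, while 12.1% of all genes were called higher. The count with any of libraries 1, 3, 4, 10 or 14 left out was 6, beside 10.4 to 11.7% of all genes, and with 5, 11 or 13 left out it was 7, beside 9.71 to 10.6%. H2-M2, H2-Eb2, H2-Ob, H2-DMb2, Cd74 and Ciita were called in WT lungs with each library left out in turn. In Has2+/- lungs the count fell to 4 without library 7, 5 without library 6 and 6 without library 8 or 16, beside 7.93 to 9.12% of all genes, and it was 15 without library 9 or 2, beside 12.1% and 10.5%, while H2-M2, H2-Eb2, H2-Ob and H2-DMb2 were called each time. Against WT-saline, the 7 calls of Has2+/- OVA became 13 without library 2, beside 10.9% of all genes. Without libraries 8, 9 and 19, a choice made after the data were seen, the counts were 15 in WT lungs, 20 in Has2+/- lungs and 10 for Has2+/- OVA against WT-saline, beside 13.8%, 12.3% and 11.9% of all genes.

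Some marker genes of other cells moved with the treatment, and some stood apart in library 2. Summed B cell markers (Ms4a1, Cd79a, Cd79b and Pax5) ran from 58.1 to 101 CPM in WT-saline and between 182 and 291 with OVA. In Has2+/- lungs the ranges were 48.4 to 139.9 (saline) and 201 to 304 (OVA), with all 4 called higher in both genotypes. In library 2 they stood at 63.5, within its group, and in libraries 8 and 9 of Has2+/- saline, where H2-Ob and H2-DMb2 were highest, they stood at 139.9 and 106, against 48.4 and 63.8 in libraries 6 and 7. Other macrophage markers (C1qa, C1qb, Adgre1 and Cx3cr1) were at 174 CPM in library 2, against 81.4 to 105 in the rest of its group and 195 to 239 in WT-OVA, and all 4 were called in WT lungs. In Has2+/- lungs 2 of the 4 were called, and the sums ran from 75.9 to 157 CPM with saline and from 129 to 211 with OVA, so that the groups overlapped. Plasma cell markers rose from 216 to 289 CPM in WT-saline to 2030 to 2982 in WT-OVA, with 4 of 4 called in each genotype.

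Among 8 dendritic cell markers, 3 were called higher (Itgax, Flt3 and Cd209a) and 1 lower (Clec9a) in WT lungs. Of the 5 tested alveolar macrophage markers, Chil3 was called higher and Car4 lower, and their sum was 669 CPM in library 2 against 233 to 328 in the rest of its group. T cell markers gave 0 of 5 calls in WT lungs by edgeR, with 1 at an unadjusted p under 0.05, and 0 of 5 in Has2+/- lungs, with 4. Of all 14495 tested genes, 6283 were at that level in WT lungs and 5754 in Has2+/- lungs. NK cell markers gave 0 higher and 1 lower of 4 in WT lungs. Eosinophil markers were low, summing to 8.11 to 13.4 CPM in WT-saline and 19.1 to 36.6 in WT-OVA, with 2 of 3 tested called higher, neutrophil markers gave 1 of 3, and Epx and Ly6g were at 0 in a saline group each. Endothelial markers gave 0 of 3 calls in WT lungs, with 2 at an unadjusted p under 0.05, and alveolar type 2 markers 0 of 5, with 0 at that level. In Has2+/- lungs 1 of 5 alveolar type 2 markers was called higher by edgeR, with 2 at that level, and endothelial markers gave 0 of 3, with 3. Of the 5 tested alveolar macrophage markers, 1 was called higher and 2 lower in Has2+/- lungs. The part of these cells in the changes of the members was not tested.

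**Figure D4:**
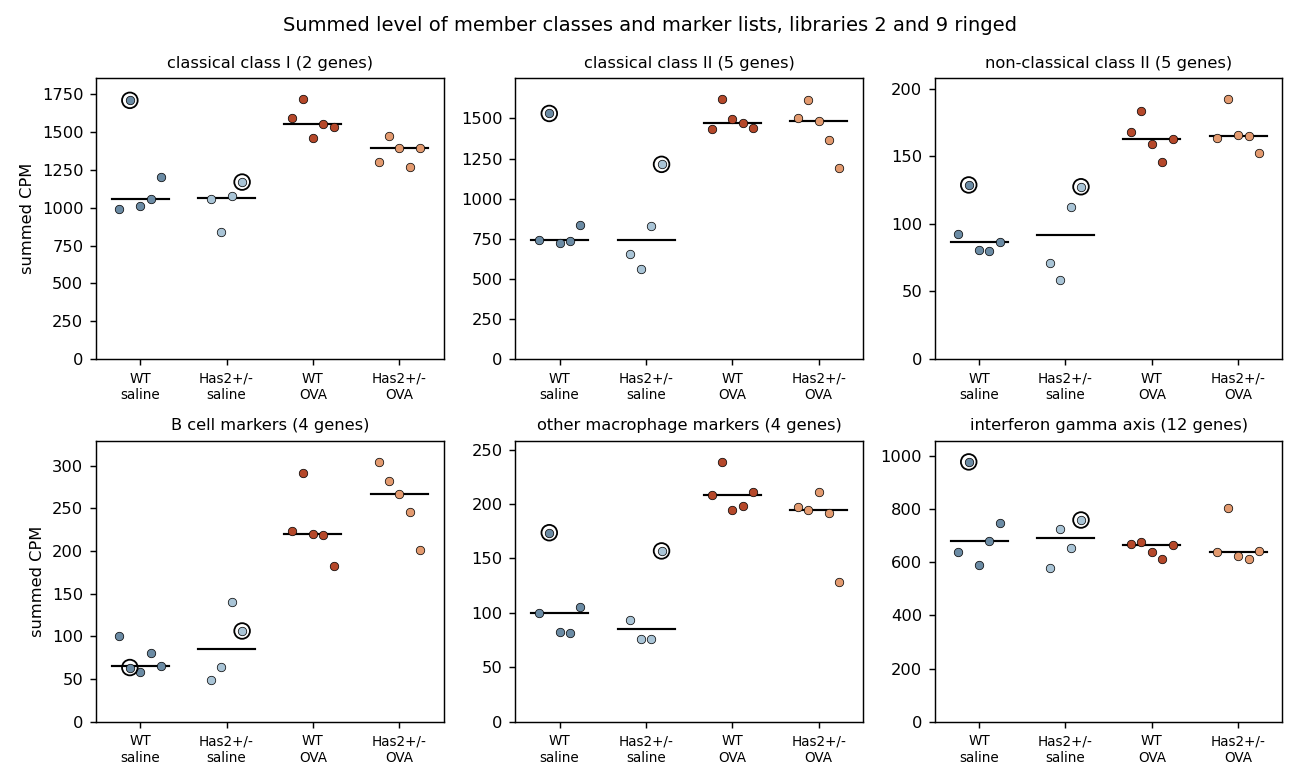
Summed CPM of 3 member classes and 3 gene lists in each library, by group, with a bar at the group median and rings on libraries 2 and 9. Library 2 lies at 1531 CPM for classical class II and at 174 for other macrophage markers, against 195 to 239 in WT-OVA, but at 63.5 for B cell markers.

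Summed over their genes, classical class II chains ran from 724 to 838 CPM in 4 WT-saline libraries, with library 2 at 1531, and from 1436 to 1620 in WT-OVA. The sum in Has2+/- saline was 559 to 1214, and in Has2+/- OVA it was 1188 to 1615. Non-classical class II chains ran from 79.8 to 129 in WT-saline and from 146 to 184 in WT-OVA, without overlap. Classical class I chains ran from 991 to 1711 in WT-saline and 1462 to 1718 in WT-OVA. The ratio of classical class II to classical class I had a median of 0.715 in WT-saline, 0.718 in Has2+/- saline, 0.943 in WT-OVA and 1.07 in Has2+/- OVA. Cd74 kept a nearly constant ratio to the sum of H2-Aa and H2-Ab1, with medians of 1.93, 1.91, 2.00 and 1.99 in the same order and a range over all libraries of 1.80 to 2.14.

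Other genes of the same routes were followed as lists. Of 16 class II processing and control genes, WT lungs had 8 called higher and Has2+/- lungs 7, with 0 lower in both. They included the endosomal proteases Ctsl (log2 fold change 2.42 in WT), Ctss (2.25), which trims the invariant chain, Ctsb (1.82) and Lgmn (1.43). The median of the list was 0.31 in WT lungs. Of 11 further genes of class I loading and peptide supply, 0 were called in either genotype by edgeR. In each genotype 3 were at an unadjusted p under 0.05, beside 6283 of all 14495 genes in WT and 5754 in Has2+/- lungs. The smallest p in WT lungs was that of the chaperone Calr (0.48 ± 0.14 SE, adjusted p = 0.0108 by edgeR). The immunoproteasome subunits Psmb8 and Psmb9 had 0.48 ± 0.19 and 0.30 ± 0.18.

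Of 6 tested genes of co-stimulation and co-inhibition, 4 were called higher in WT lungs and 4 in Has2+/- lungs. In WT lungs these were Pdcd1lg2 (2.10) and Cd274 (0.84), which encode ligands of the inhibitory receptor PD-1, with Cd80 (1.34) and Cd86 (0.83). Among 10 tested receptors for MHC molecules and relatives of such receptors, Lilrb4a (2.27), Pirb (1.24) and Lag3 (1.23) were called higher in WT lungs and 0 lower. The list was split, with 4 log2 fold changes above 0, 6 below and a median of -0.020. In the interferon gamma axis, 1 of 10 tested genes was called higher (Ifngr2, 0.68) and 0 lower in WT lungs, with a median of -0.20. Of the 10, 3 were at an unadjusted p under 0.05, beside 6283 of all 14495 genes. Summed over the list, library 2 stood at 978 CPM, above the other 18 libraries, which ran from 578 to 803. Class I-like genes outside the MHC gave 0 higher and 1 lower of 8 (Mill2, -0.83).

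The genotypes were then compared. Between Has2+/- OVA and WT-OVA, 0 of 37 members were called by edgeR, as were 0% of all genes, with 2 members and 1120 genes at an unadjusted p under 0.05, and DESeq2 also called 0 members. The class I chains had negative values in 15 of 20, with a median of -0.21, and the class II chains in 6 of 10, with a median of -0.01, beside 0.0041 over all genes. Class II log2 fold changes between the genotypes under OVA lay between -0.13 ± 0.19 SE (H2-Ab1) and 0.25 ± 0.22 (H2-Ob).

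The 5 members of smallest p in that comparison were H2-T3, H2-Q2, H2-K2, H2-Bl and H2-K1. H2-T3 gave 1.65, 3.00, 1.78, 2.08 and 2.21 CPM in WT-saline libraries 1 to 5, and 1.60, 1.87, 2.17 and 2.39 in Has2+/- saline libraries 6 to 9. OVA values of H2-T3 were 1.91, 2.77, 2.25, 1.74 and 2.19 CPM in WT and 2.57, 2.04, 2.63, 15.1 and 2.11 in Has2+/- mice. H2-T3 encodes the thymus leukemia antigen, and 1 library stood apart for it. Library 18 had 96 reads and 15.1 CPM, 5.02 times the highest of the other 18 libraries, which held 9 to 17 reads each. Summed T cell markers were also highest in library 18, at 134 CPM against 35.9 to 83.8 elsewhere, and their part in this value was not tested. For H2-T3 edgeR gave a log2 fold change of 1.19 ± 0.47 (SE) and an adjusted p of 0.558. Without library 18 the log2 fold change of H2-T3 was 0.10 and its interaction between genotype and OVA 0.22. In saline lungs H2-Q2 stood at 10.5, 12.3, 8.11, 9.35 and 12.8 CPM (WT) and at 9.74, 5.99, 10.7 and 7.39 CPM (Has2+/-). Under OVA, H2-Q2 stood at 12.5, 15.3, 12.9, 13.1 and 16.04 CPM in WT and at 8.18, 12.8, 13.1, 10.5 and 7.11 in Has2+/- lungs. The 2 OVA groups overlapped. H2-Q2 had a log2 fold change of -0.44 ± 0.18 (SE) and an edgeR adjusted p of 0.571. For H2-K2, the WT-saline libraries held 7.33, 14.99, 9.49, 7.27 and 9.61 CPM, and the Has2+/- saline libraries 9.30, 9.73, 8.86 and 12.2. With OVA, H2-K2 had 16.8, 14.9, 14.8, 11.2 and 14.6 CPM in WT mice and 12.99, 9.25, 13.7, 10.4 and 9.80 in Has2+/- mice. These groups overlapped, too. edgeR put H2-K2 at a log2 fold change of -0.36 ± 0.18 (SE), with an adjusted p of 0.647. H2-Bl, whose values are given above, had -0.32 ± 0.17 (SE) and H2-K1 -0.23 ± 0.12, with adjusted p of 0.658 and 0.665 by edgeR. For 2 members, H2-Bl and H2-Q6, every Has2+/- OVA library lay below every WT-OVA library, as for 0.835% of all genes, at 12.7 to 16.3 against 16.6 to 20.6 CPM and 66.7 to 90.9 against 95.1 to 109 CPM.

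Between the saline groups 0 of 37 members were called by edgeR, as were 0% of all genes, and DESeq2 called 0 members. At an unadjusted p under 0.05 were 2 members and 1006 genes. Here, too, class I chains leaned to negative values, in 17 of 20, with a median of -0.13. Class II chains did so in 7 of 10, with a median of -0.15, beside 0.0056 over all genes. The smallest p belonged to H2-K1 (-0.30 ± 0.13 SE, adjusted p = 0.690) and Tapbp (-0.21 ± 0.10, adjusted p = 0.704). Tapbp gave 281, 380.5, 286, 303 and 301 CPM in WT-saline libraries 1 to 5, and 263, 215, 289 and 304 in Has2+/- saline libraries 6 to 9. OVA values of Tapbp were 328, 375, 313, 311 and 333 CPM in WT and 311, 317, 319, 296 and 298 in Has2+/- mice. The saline groups overlapped. H2-M5 (0.58 ± 0.33), H2-Q7 (-0.30 ± 0.19) and H2-Q2 (-0.32 ± 0.20) came next. In saline lungs H2-M5 stood at 1.47, 1.23, 0.791, 2.29 and 0.788 CPM (WT) and at 1.89, 1.68, 1.67 and 2.61 CPM (Has2+/-). Under OVA, H2-M5 stood at 1.91, 1.48, 2.46, 2.44 and 2.37 CPM in WT and at 2.41, 1.11, 2.10, 2.98 and 2.50 in Has2+/- lungs. These values correspond to 4 to 19 reads. For H2-Q7, the WT-saline libraries held 32.8, 57.1, 29.5, 42.4 and 38.3 CPM, and the Has2+/- saline libraries 29.9, 20.6, 36.1 and 43.7. With OVA, H2-Q7 had 49.5, 56.3, 52.5, 51.1 and 54.1 CPM in WT mice and 38.00, 56.1, 41.8, 39.4 and 50.5 in Has2+/- mice. Library 7 was the lowest for H2-Q7 and library 2 the highest of all 19.

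The interaction, which asks whether OVA changed a gene differently in the 2 genotypes, called 0 of 37 members and 0% of all genes by edgeR, with 0 members and 594 genes at an unadjusted p under 0.05, and DESeq2 called 0 members. Its smallest p was that of H2-T3 (1.30 ± 0.73 SE), which rests on library 18, followed by H2-K2 (-0.39 ± 0.26), H2-M5 (-0.52 ± 0.43), H2-Q1 (0.24 ± 0.21) and H2-Eb2 (0.71 ± 0.65). H2-Q1 gave 12.1, 14.6, 11.7, 13.1 and 13.2 CPM in WT-saline libraries 1 to 5, and 9.74, 8.80, 13.7 and 11.7 in Has2+/- saline libraries 6 to 9. OVA values of H2-Q1 were 13.8, 14.2, 13.7, 18.6 and 12.9 CPM in WT and 11.9, 18.5, 15.9, 15.1 and 12.5 in Has2+/- mice. Library 13 was the highest for H2-Q1, and the OVA groups overlapped. For H2-M2 the interaction was -0.38 ± 0.88, for H2-Ob -0.07 ± 0.36, for H2-DMb2 0.01 ± 0.24 and for Cd74 0.06 ± 0.24, so differences of these sizes in either direction were within the error.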

How the data were processed

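RNA of 19 whole mouse lungs was sequenced after ribosomal RNA depletion with a directional kit, as paired reads of 36 bases. The authors mapped the reads to mm10 with CLC Genomics Workbench and deposited read counts per gene, which are used here as deposited. Reads shared by near-identical genes, common among H2 genes, can be split between them. The 38 other columns of per-library values in the table were not used. CPM values are counts divided by the library's TMM-adjusted total and multiplied by 1000000. Counts were fitted with edgeR (4.0.16, R 4.3.3, limma 3.58.1) by its quasi-likelihood test, with TMM factors, edgeR's filter on low counts, a mean for each of the 4 groups and 15 residual degrees of freedom, over 14495 genes. Genes with a Benjamini-Hochberg adjusted p under 0.01 and a fold change over 1.2 were called. The script was tested on simulated data. Alternatives were other scalings and filters, DESeq2 (1.42.0), an adjusted p under 0.05, no minimum fold, only the groups compared and each library left out. The members and lists were chosen with earlier results of these data known. Some genes of the marker lists are not reported here and were left out of the sums and counts. Every member could be named, values in each library went to members called against saline and to the 5 of smallest p in each comparison of genotypes, and from each list up to 4 genes of smallest p in WT-OVA against WT-saline could be named, beside the genes that make up a marker list. Promoter sequences are RefSeq's (GRCm38.p6), searched over 250 bases before the start.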

Additional observations from a re-analysis of the deposited data

Results flagged for a closer look

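Of 148 pairs of a member and a group, 15 held 1 library whose gap to its nearest neighbour was a large part of the group's whole range, where chance gives about 1 in 20 groups, and members are not independent of each other. In 9 of the 15 this was WT-saline library 2 at the top. It held 1766 CPM of Cd74 (next highest 1043), 487 of H2-Aa (261), 497 of H2-Ab1 (279.8), 201 of H2-Ea-ps (113) and 345 of H2-Eb1 (184). Class I members stood apart in the same library, with 1179 CPM of H2-D1 (next highest 825), 172 of H2-Q4 (115) and 44.8 of H2-Q10 (30.9), as did Tapbp at 380.5 CPM (303).

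Has2+/- OVA library 16 was the highest of its group for Ciita, at 73.3 CPM (next highest 46.8), and for Tap1, at 136 (99.3). Has2+/- OVA library 18 held 15.1 CPM of H2-T3 (next highest 2.63) and was the lowest for H2-Ke6, at 12.9 (next lowest 15.5). Has2+/- saline library 9 held 1.30 CPM of H2-Eb2 (next highest 0.334), and WT-OVA library 13 held 18.6 of H2-Q1 (next highest 14.2).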

How the results depend on the processing

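An adjusted p under 0.05 gave 19 members higher in WT-OVA than in WT-saline, 18 in Has2+/- OVA against Has2+/- saline and 12 against WT-saline, beside 15.8%, 14.5% and 15% of all genes. With 1 library left out, the 3 counts ran from 6 to 19, from 4 to 15 and from 5 to 13, and the shares of all genes from 9.71 to 12.7%, 7.93 to 12.1% and 9.12 to 11.6%. Without libraries 8, 9 and 19, an alternative chosen after seeing the data, the count in Has2+/- lungs was 20, beside 12.3% of all genes. Members lower under OVA, and members called between genotypes or for the interaction, were 0 under each setting run, and fitting only the groups compared gave no value for the interaction. Over single members called, the planned settings other than a library left out gave 232 values, of which 10 lost the call, and leaving out 1 library gave 551, of which 112 did. The 232 include an adjusted p under 0.05 and no minimum fold, which loosen the cutoff on the same fit and cannot lose a call. The 551 include fits that left out a library of a group not compared. None reversed. The cause was not tested. Scaling by total count alone lost H2-DMa, H2-Aa, H2-Ea-ps and H2-D1 in WT lungs. H2-M2, H2-Eb2 and H2-T3 rest on few reads in saline lungs, which limits the size of their fold changes. No paired analysis was possible because the columns of the count table do not carry the replicate numbers of the labels.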
